A study of Bos taurus with 2 samples.

Results

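The proteasome is the large protease that degrades proteins tagged with ubiquitin. Its core is a barrel of alpha and beta rings, in which the beta rings hold the active sites and the alpha rings form the gate. A regulatory particle of ATPase and non-ATPase subunits caps the core, binds ubiquitin chains, removes them and unfolds the substrate. Other proteins assemble the particles, open the gate without ATP or inhibit the core. Interferon replaces the catalytic subunits by immune counterparts in many cell types, and that immune form is known for producing peptides for presentation on MHC class I.

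The genes described here are those of the standard proteasome, its assembly chaperones, its activators and its inhibitor. They were chosen by name, when the symbol of a probe in the files, or the current symbol of its RefSeq entry, began with PSMA, PSMB, PSMC, PSMD, PSME, PSMF or PSMG and a number. The immune subunits PSMB8, PSMB9 and PSMB10 were left out. The rule took 46 of the 17376 genes with a name on the array, with 98 of its 43653 gene probes. Among the 46 are PSMC3IP and PSME3IP1, whose products are named for binding a proteasome protein and are no subunits. PSMA8, a subunit of the testis, was found under no probe name and was not analysed here.

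Mammary tissue of adult female Chinese Holstein cows in late lactation was compared between clinical mastitis and normal glands, with 1 array for each. Antibiotics had been used in the cows with mastitis only, so disease and antibiotic use cannot be told apart, and no cow of either group had been injected with rBST, a growth hormone. The methods give 3 cows per group and the sources used here do not name those behind each array. Without a replicate array, no difference has a check between cows and no p-value is given.

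The files hold a net signal for each spot, its median Cy3 intensity less the mean of the negative controls. A probe was measured on an array when this signal passed the mean of the negative controls by 2.6 SD, that is 7.10 for mastitis and 8.74 for normal, and its spot had been found at scanning. Signals were then scaled by the 75th percentile of their array, 210 for mastitis and 128 for normal, so a probe at equal scaled level has a net signal 1.64 times as high in mastitis. A gene's log2 ratio is averaged over its probes measured on both arrays and is positive where mastitis was higher. Over the 12473 genes measured on both arrays the median log2 ratio was -0.15. The pooled SD was 0.16 between replicate spots of a probe (41 probes) and 0.445 between different probes of a gene. The first is technical and is an SD of single spots, not of gene means. The second was not traced to a source, and neither measures a spread between cows. In bulk tissue, fewer cells of a type and less RNA per cell cannot be told apart.

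The proteasome genes differed little between mastitis and normal tissue. Of the 45 members measured on both arrays, none was 2-fold higher and none 2-fold lower in mastitis, while 2.29% of all measured genes were 2-fold higher and 9.12% were 2-fold lower. At 1.5-fold, 5 members were lower and none was higher, beside 21.6% and 7.78% of all genes. The 5 were PSMB6, PSMB11, PSMB5, PSMD8 and PSMD7, and with median or spike-in scaling only PSMB6 was 1.5-fold lower while PSMB1 was 1.5-fold higher. Without scaling 20 members were 1.5-fold higher and none was 1.5-fold lower. The members' median log2 ratio was -0.15 with quartiles of -0.31 and -0.082, whereas the quartiles of all measured genes were -0.52 and 0.20. Thus 24 of the 45 lay below the median of all genes, as did 6236 of the 12473 genes. The sign of such small ratios rests on the scaling, since 8 members had a ratio above 0 as reported, 24 had one with spike-in scaling, and 43 had one when the arrays were left unscaled.

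**Figure D1:**
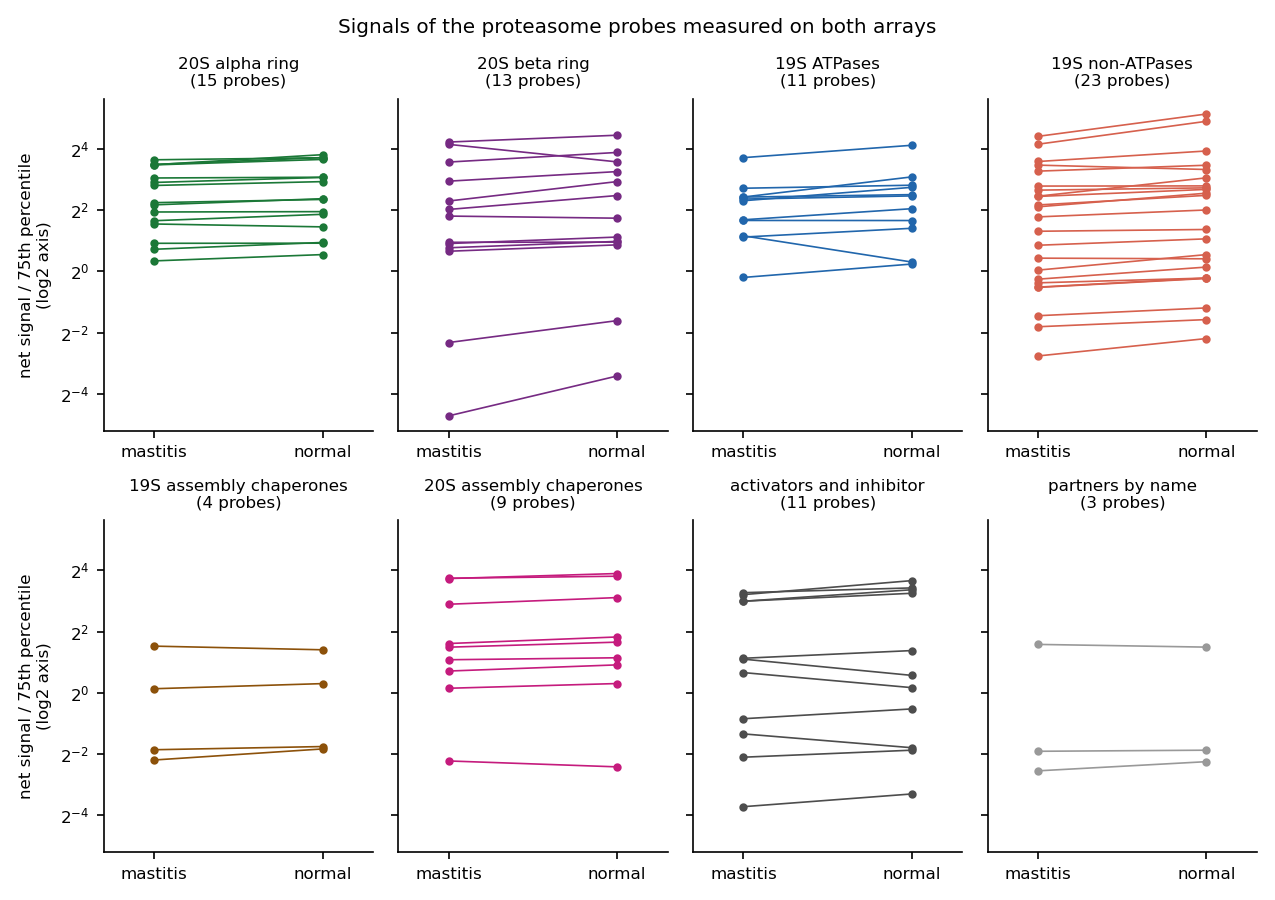
Net signal divided by the 75th percentile of its array (vertical, log2 axis) for each proteasome probe measured on both arrays, in 8 panels by role, with mastitis on the left of each panel and normal on the right. Each line joins the 2 values of a probe. Of the 89 lines 76 are lower on the mastitis side, the steepest being the dim PSMB6 probe (log2 ratio -1.30), and the steepest in the other direction is a probe of PSMC1 (0.86).

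The members were more alike in ratio than all measured genes and than genes of like signal, as a description of these arrays. Within 0.25 of the median of all genes on the log2 scale lay 31 of the 45 members (68.9%), against 36.5% of all measured genes and 47.0% of 1899 other genes of like signal. Those were the genes whose median net signals lay between the members' own quartiles, 344 and 1409.5 for mastitis and 241 and 975 for normal. The interquartile range of the log2 ratio was 0.23 for the members, 0.52 for the genes of like signal and 0.72 for all measured genes. It was 0.23 to 0.32 for the members and 0.48 to 1.04 for all genes under the other settings, the deposited table as given apart.

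The members' probes were also close to each other. Of the members, 29 had more than 1 measured probe and the pooled SD over their probes was 0.23, against 0.445 for all genes. That SD was not computed for genes of like signal, so such closeness is not shown to be particular to the members. In 6 of the 29 the probes differed in sign. The probe of PSMD5 with 4 replicate spots gave log2 ratios between -0.24 and -0.12 (SD 0.057). Across the 45 members the Spearman correlation of the log2 ratio with the product of both signals was -0.041, over genes that share the same arrays.

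The alpha ring genes, which encode the gate of the core, had nearly the same ratio throughout. The 7 measured genes, PSMA1 to PSMA7, had log2 ratios between -0.16 and -0.012 with a median of -0.13, a span of 0.14 that is smaller than the SD of 0.16 between replicate spots. PSMA7 had net signals of 660, 1568, 2618 and 2332 in mastitis and 465, 1071, 1672 and 1609 in normal tissue over its 4 measured probes, a log2 ratio of -0.15 (SD 0.061). PSMA6 had 2343, 2356 and 613 in mastitis and 1791, 1676 and 350 in normal tissue, a log2 ratio of -0.15 (SD 0.22). None of the 7 genes lay further from the median of all genes than the SD between replicate spots. PSMA3, the highest of the ring, had 804 in mastitis and 494 in normal tissue from a single probe. PSMA1 had 1465 in mastitis and 974 in normal tissue (log2 ratio -0.13, 1 probe). PSMA5 had 1735 and 945 in mastitis and 1076 and 662 in normal tissue (log2 ratio -0.11, SD 0.12). PSMA2 and PSMA4, with 2 probes each, had log2 ratios of -0.16 (SD 0.071) and -0.11 (SD 0.15), so the whole ring moved little. A further probe of PSMA1 and one of PSMA7 were below background in both tissues.

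The beta ring held both the lowest and the highest ratio of all members. PSMB1, a subunit without an active site, had net signals of 3709 in mastitis and 1522 in normal tissue from a single probe, 1.49-fold higher after scaling (log2 ratio 0.57). PSMB4, which also lacks an active site, had 3912 and 1615 in mastitis and 2782 and 1222 in normal tissue (log2 ratio -0.27, SD 0.063). PSMB2 and PSMB3, of the same kind, had log2 ratios of -0.070 (SD 0.20) and -0.11 (SD 0.14), each over 2 probes, and another probe of PSMB3 was below background. PSMB1 alone of these 4 lay further from the median of all genes than the SD between replicate spots. PSMB11, which takes the place of PSMB5 in the thymus of mouse and human, had a net signal of 42 in mastitis and 42 in normal tissue, 1.64-fold lower after scaling (log2 ratio -0.71, 1 dim probe). The ring's 8 genes spanned 1.45 on the log2 scale with a median of -0.26.

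**Figure D2:**
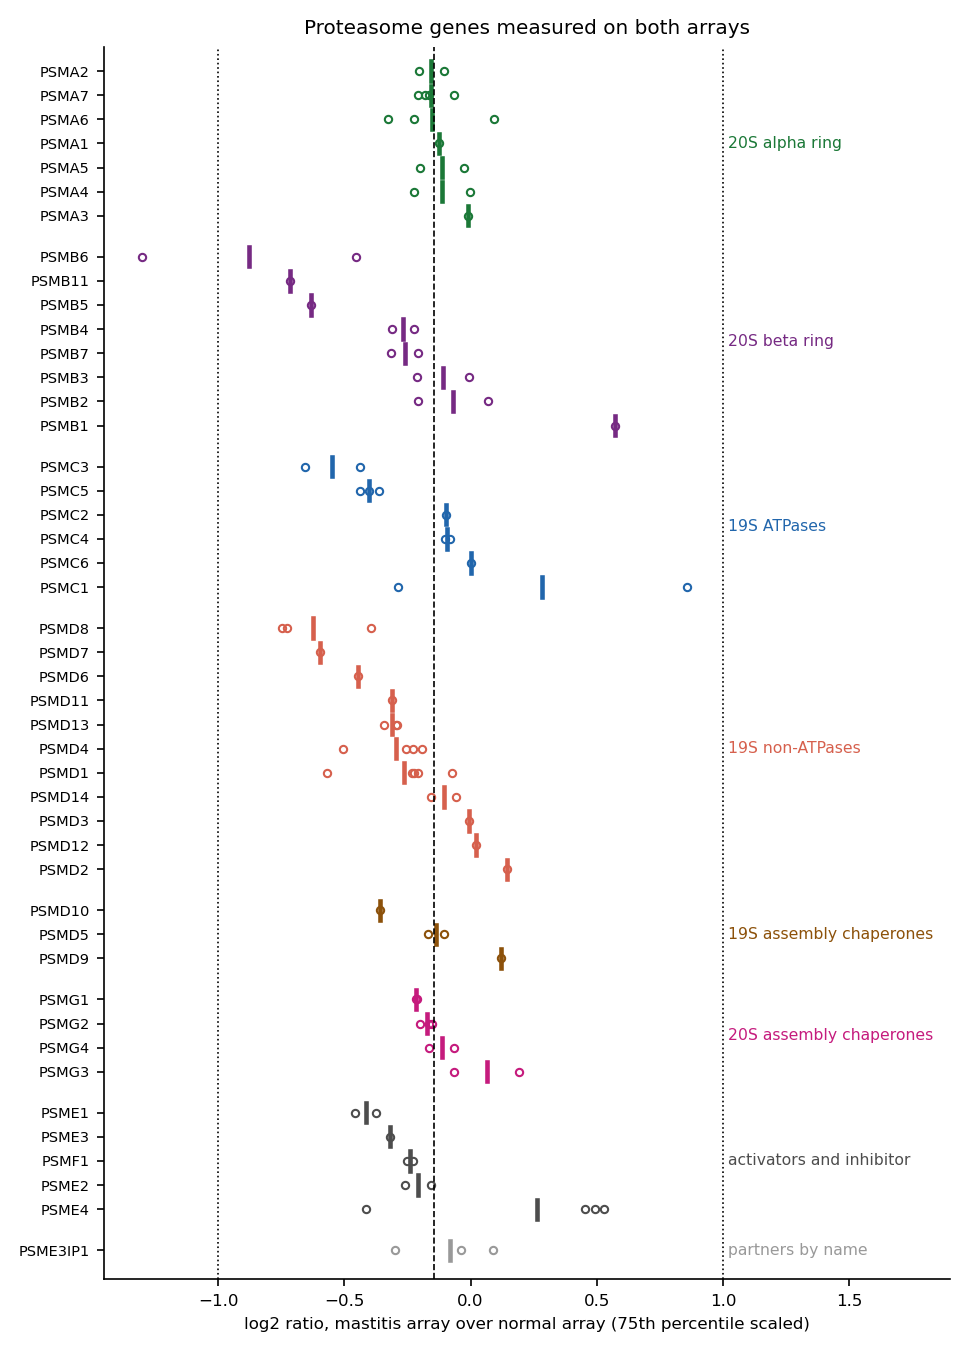
Log2 ratio of mastitis over normal (horizontal axis) for the 45 proteasome genes measured on both arrays, grouped and coloured by role. Open points show probes and vertical ticks their mean, the dashed line stands at the median over all measured genes (-0.15) and the dotted lines at 2-fold. The alpha ring ticks lie between -0.16 and -0.012, those of the beta ring between -0.88 and 0.57, and no tick reaches a dotted line.

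Among the catalytic subunits, PSMB5 and PSMB6 stood at the low end of the members and PSMB7 nearer the middle. PSMB5, which carries the chymotrypsin-like site, had net signals of 1031 in mastitis and 975 in normal tissue, 1.55-fold lower after scaling (log2 ratio -0.63, 1 probe). PSMB6, which carries the caspase-like site, had 852 in mastitis and 711 in normal tissue at one probe, a log2 ratio of -0.45. Its other probe was close to the threshold, with 8 in mastitis and 12 in normal tissue, and its log2 ratio of -1.30 was the only one of a member probe past 2-fold. The mean of -0.88 (SD 0.60) made PSMB6 the lowest member, and it became -0.45 where a net signal of at least 50 was required. PSMB7, which carries the trypsin-like site, had 2488 and 331 in mastitis and 1884 and 233 in normal tissue, a log2 ratio of -0.26 (SD 0.0745).

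The immune subunits that replace these 3 were unlike each other. PSMB9, the counterpart of PSMB6, had net signals of 1228 and 1278 in mastitis and 6924 and 5923 in normal tissue, 8.39-fold lower (log2 ratio -3.07, SD 0.20). Another PSMB9 probe had 127 in mastitis and 95 in normal tissue, but its spot was marked as not found in mastitis, and with such spots kept PSMB9 had a log2 ratio of -2.14. PSMB10, the counterpart of PSMB7, had 173 in mastitis and 140 in normal tissue (log2 ratio -0.41, 1 probe). PSMB8, the counterpart of PSMB5, had 1015, 162 and 421 in mastitis and 751, 116 and 218 in normal tissue (log2 ratio -0.092, SD 0.28). PSMB9 alone of the 6 catalytic genes was thus past 2-fold. Counted as immune minus standard subunit, the log2 ratios differed by -2.19 for PSMB9 and PSMB6, by -0.15 for PSMB10 and PSMB7 and by 0.54 for PSMB8 and PSMB5, and these differences were not tested.

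**Figure D3:**
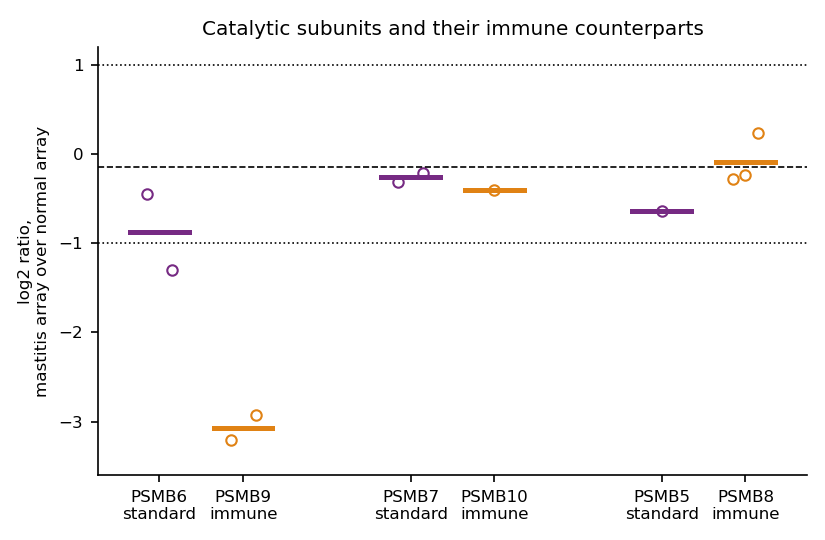
Log2 ratio of mastitis over normal (vertical axis) for the 3 standard catalytic subunits (purple) and their immune counterparts (orange). Open points show probes measured on both arrays and bars their mean, with the dashed line at the median over all measured genes (-0.15) and dotted lines at 2-fold. The PSMB9 bar lies at -3.07, and the other 5 bars lie between -0.88 and -0.092.

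The ATPases of the regulatory particle, which unfold the substrate and push it into the core, had a median log2 ratio of -0.095 over 6 genes. PSMC3 had net signals of 1128 and 183 in mastitis and 1084 and 151 in normal tissue (log2 ratio -0.55, SD 0.16). PSMC5 had 2749, 1037 and 674 in mastitis and 2216, 856 and 528 in normal tissue (log2 ratio -0.40, SD 0.038). Both were lower than the median of all genes at each of their probes. PSMC2, PSMC4 and PSMC6 had log2 ratios of -0.099, -0.092 and 0.0026, closer to the median of all genes than the SD between replicate spots. The 2 probes of PSMC1 disagreed, with 469 in mastitis and 158 in normal tissue at one (log2 ratio 0.86) and 456 in mastitis and 339 in normal tissue at the other (-0.29). Their mean of 0.28 (SD 0.81) therefore gives no direction for PSMC1.

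The non-ATPase subunits of the regulatory particle had a median log2 ratio of -0.30 over 11 genes. Of these, 2 were 1.5-fold lower, a share near the 21.6% of all measured genes. With median or spike-in scaling neither of the 2 was 1.5-fold lower. PSMD8, a lid subunit, had net signals of 4451, 3725 and 176 in mastitis and 4496, 3812 and 141 in normal tissue, 1.54-fold lower after scaling (log2 ratio -0.62, SD 0.20). PSMD7, the partner of the deubiquitinase PSMD14, had 1150 in mastitis and 1061 in normal tissue, 1.51-fold lower (log2 ratio -0.60, 1 probe). PSMD14 itself, which removes ubiquitin chains at the entrance, had 520 and 162 in mastitis and 330 and 110 in normal tissue (log2 ratio -0.11, SD 0.069). The 2 partners thus had different ratios, a difference that was not tested. PSMD4, a ubiquitin receptor, had 1143, 77, 216 and 2026 in mastitis and 817, 56, 187 and 1411 in normal tissue (log2 ratio -0.30, SD 0.14). The scaffold subunits PSMD1 and PSMD2, which bind ubiquitin and its shuttles, had log2 ratios of -0.26 (SD 0.18, 5 probes) and 0.14 (1 probe). PSMD2, with 2320 in mastitis and 1281 in normal tissue, was the highest of the group. Of the remaining lid genes, PSMD6 had 904 in mastitis and 750 in normal tissue (log2 ratio -0.44, 1 probe), and PSMD3, PSMD11, PSMD12 and PSMD13 lay between -0.31 and 0.021.

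The assembly chaperones lay on both sides of the median of all genes. PSMG1 to PSMG4, which build the core, lay between -0.22 and 0.064 with a median of -0.14. PSMG1 had net signals of 1558 and 641 in mastitis and 1104 and 453 in normal tissue, log2 ratios of -0.22 and -0.21 for its 2 probes. PSMG4 had 2805 and 2786 in mastitis and 1790 and 1902 in normal tissue (log2 ratio -0.11, SD 0.069). PSMG2, with 3 probes, and PSMG3, with 2, had -0.17 (SD 0.025) and 0.064 (SD 0.18). Of the chaperones of the regulatory particle, PSMD5 had a log2 ratio of -0.14 (SD 0.0445, 2 probes). PSMD9 had 604 in mastitis and 339 in normal tissue (log2 ratio 0.12, 1 probe). PSMD10 had 46 in mastitis and 36 in normal tissue (log2 ratio -0.36, 1 dim probe). PSMD9 and PSMG3 lay 0.27 and 0.21 above the median of all genes and PSMD10 lay below it by more than the SD between replicate spots.

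The activators were not alike. PSME4, an activator of the nucleus that is known for the degradation of acetylated histones, had net signals of 450, 332, 83 and 16 in mastitis and 190, 144, 37 and 13 in normal tissue. The first 3 of these probes had log2 ratios of 0.53, 0.49 and 0.45 and the dim one had -0.41, which gave a mean of 0.26 (SD 0.45) and a median over probes of 0.47. PSME1, one of the interferon-induced pair that forms an open ring on the core, had 1667 and 1937 in mastitis and 1318 and 1620 in normal tissue (log2 ratio -0.42, SD 0.057). PSME2, the other of the pair, had 2024 and 1669 in mastitis and 1374 and 1217 in normal tissue (log2 ratio -0.21, SD 0.073). Neither gene of the pair was higher in mastitis after scaling by the 75th percentile. PSME3, a related activator of the nucleus, had 117 in mastitis and 89 in normal tissue (log2 ratio -0.32, 1 probe). PSMF1, the inhibitor of the core, had 459 and 49 in mastitis and 333 and 35 in normal tissue (log2 ratio -0.24, SD 0.016). PSME3IP1, a partner of PSME3, had net signals of 628, 56 and 36 in mastitis and 360, 35 and 27 in normal tissue. Its log2 ratio was -0.082 (SD 0.20, 3 probes), and 0.0885 where a net signal of at least 50 was required. PSMC3IP, a protein of meiotic recombination, was measured in mastitis alone, with 16 in mastitis and 2 in normal tissue. For these signals the fold was at least 1.08, against the lowest signal well above background in normal tissue, a net signal of 9. This bound makes no allowance for noise. The other PSMC3IP probe had 5 in mastitis and 4 in normal tissue, below the threshold in both, so no direction is given.

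Other genes of the ubiquitin and proteasome system were nearly all within 2-fold as well. Of 15 measured genes that assist, bind or control the proteasome, none was 2-fold apart and the median log2 ratio was 0.030. Of all measured genes 2.29% were 2-fold higher and 9.12% were 2-fold lower. These are means over probes, and the 4 probes of ADRM1 ran from -0.38 to 2.03 (mean 0.27, SD 1.18). POMP, the maturation protein of the core, had net signals of 2259 in mastitis and 1745 in normal tissue (log2 ratio -0.34, 1 probe). The subunit gene SEM1 had 2525 in mastitis and 1479 in normal tissue (log2 ratio 0.057, 1 probe). NFE2L1 and NFE2L2, transcription factors known to drive proteasome genes under stress, had log2 ratios of 0.030 (SD 0.18) and 0.31 (SD 0.27), each over 4 probes. The highest of the list were the ligase gene UBE3C (0.56, SD 0.20, 3 probes) and AKIRIN2, a factor of nuclear import (0.50, 1 probe). Of 6 genes of ubiquitin and its activating enzymes none was 2-fold apart (median -0.33), with UBB at -0.38 (SD 0.069, 4 probes). Of 14 genes of ubiquitin shuttles and p97 (median -0.18), only NPLOC4 was 2-fold lower, from a dim probe with 12 in mastitis and 16 in normal tissue. The segregase gene VCP had a log2 ratio of -0.30 (SD 0.18, 4 probes) and the autophagy receptor gene SQSTM1 one of 0.35 (SD 0.056, 3 probes).

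Beside other large complexes, the median of the proteasome genes lay between those of the chaperonin and the ribosome. The 8 genes of the CCT chaperonin, which folds actin and tubulin, had a median log2 ratio of 0.18 and an interquartile range of 0.27. The 9 genes of the COP9 signalosome, which is built like the proteasome lid, had -0.18 and 0.39. The 43 genes of ribosomal proteins had -0.41 and 0.26, and 37 of them lay below the median of all genes, as did 24 of the 45 proteasome genes. None of the genes of these complexes was 2-fold apart, beside 2.29% of all measured genes 2-fold higher and 9.12% 2-fold lower. At those shares a list of 8 or 9 genes could hold none. The interquartile ranges of these lists were below the 0.72 of all measured genes, so a range narrower than that was not particular to the proteasome. The SD over genes was 0.19 for the chaperonin, 0.22 for the signalosome and 0.19 for the ribosomal proteins. Each was below the 0.27 of the proteasome genes. Differences between the lists were not tested.

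**Figure D4:**
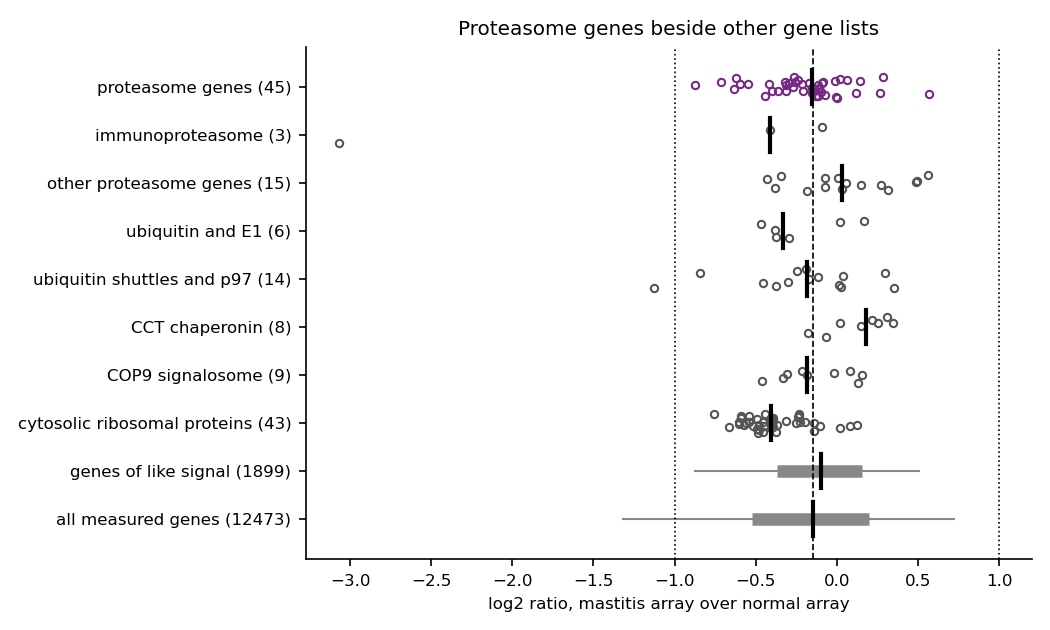
Log2 ratio of mastitis over normal (horizontal axis) for the measured genes of each list, with their number in brackets. Open points show genes, jittered vertically, and black bars medians, while in the lower 2 rows grey bars give the quartiles (thick) and the range between the 5th and 95th percentiles (thin). The dashed line stands at -0.15, the median over all measured genes, the dotted lines at 2-fold, and PSMB9 is the point at -3.07.

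Several lists of cell type markers held genes past 2-fold, which the proteasome genes did not. The shares over all measured genes were 2.29% for 2-fold higher and 9.12% for 2-fold lower. Of milk protein genes, 9 of 9 measured were 2-fold lower in mastitis (median -6.66), with summed scaled signals of 143 in mastitis and 3600 in normal tissue, and LALBA was below background in mastitis. Of 8 neutrophil markers 7 were 2-fold lower, with sums of 16.5 in mastitis and 46.4 in normal tissue, and CXCR2 and MPO were below background in both. Of 6 macrophage markers 3 were 2-fold higher, with sums of 25.6 in mastitis and 14.5 in normal tissue. Of 10 luminal epithelial markers 2 were 2-fold lower, with sums of 137 in mastitis and 239 in normal tissue, and all 10 were measured in both. Their median log2 ratio was -0.12, near that of all genes, and 5 of the 10 lay below 0. The others lay above 0, up to KRT18 at 0.97. Of 5 erythroid markers 3 were 2-fold higher (median 2.21), with sums of 70.4 in mastitis and 48.6 in normal tissue. Of 3 adipocyte markers 2 were 2-fold lower (median -1.61), with sums of 61.8 in mastitis and 57.5 in normal tissue. The 2 were dim, LEP with net signals of 9 in mastitis and 17 in normal tissue and CIDEC with 29 and 54. FABP4 was not lower (log2 ratio 0.12), ADIPOQ was below background in both and PLIN1 in normal tissue alone. Of 6 markers each, 1 of B and plasma cells and 1 of fibroblasts were 2-fold lower, and no marker of T and NK cells or endothelium was 2-fold apart. At the shares of all genes, lists of 6 or 8 genes could hold 1 or none. The fibroblast markers went both ways, 3 of the 6 lying below 0, with COL3A1 at -1.09 and DCN at 0.76. The part of these shifts in the proteasome ratios was not tested.

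Positions relative to the median of all genes were compared over 16 settings, the reported one included and the deposited table left out. Settings that only rescale an array cannot change this position, and leaving out PSMC3IP and PSME3IP1 cannot either. These settings repeat the reported position by construction and are still counted among the 16. For PSMB1, PSMB5 and PSMB11, each with 1 probe, only normexp and quantile normalization changed the gene's own ratio beyond rescaling. For PSMD7 the lack of a filter did so as well. The other filter and probe settings moved only the median of all genes for these 1-probe members, so agreement over the 16 is a weak check for them. In all 16, PSMB1 lay 0.62 to 0.93 above the median of all genes and PSME4 0.33 to 0.62 above it. PSMB5, PSMB6, PSMC3, PSMD7, PSMD8 and PSME1 lay below it in all 16, with PSMB6 between -0.74 and -0.25 and PSMB5 between -0.58 and -0.27. PSMB11 was measured in 15 settings and lay below it in each. PSMC1 lay above it in 15 and below it with the brightest probe. PSMD14 was above it in 14 and below it in 2, and PSME2, PSMB4, PSMB7 and PSMD4 were each below it in 14 and above it in 2.

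**Figure D5:**
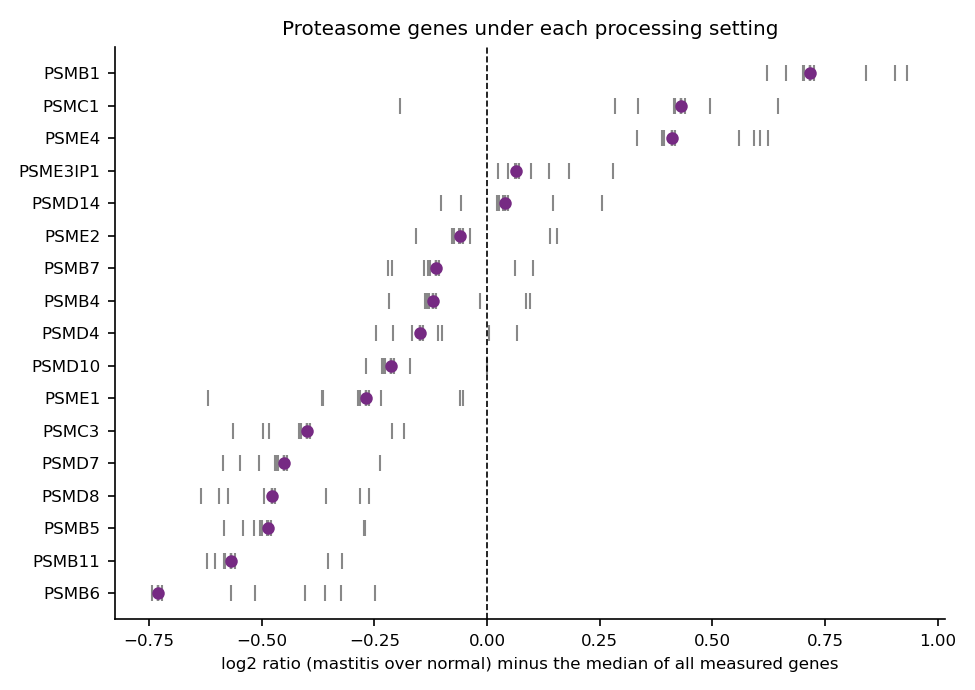
Log2 ratio of mastitis over normal minus the median over all measured genes (horizontal axis) for 17 named proteasome genes. Filled points show the reported values and grey ticks the values under the other processing settings, the deposited table left out. PSMB1 stays 0.62 to 0.93 above 0 and PSMB6 stays below 0, between -0.74 and -0.25, while the ticks of PSMC1 fall on both sides.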

How the data were processed

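Total RNA was copied to Cy3-labelled cRNA and hybridized, per the labels. Per the file headers, an Agilent bovine array (design 023647) was read with GenePix Pro 6.1, and the authors deposited for each spot an intensity at 532 nm, less the mean of the negative controls and unscaled, a percent of saturated pixels and a flag score. The submitters' notes name Feature Extraction, and the methods an Affymetrix chip, which the layout of the files does not bear out. A table of log2 values was also deposited, with medians of 4.34 (mastitis) and 4.29 (normal) and with no stated centring. Its mastitis column matched the scanner values only once displaced by 1 probe (Spearman 1.00, against 0.10 as given), so it was an alternative only. Both arrays share a slide and a scan.

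Control spots were removed and replicate spots averaged. Of 43653 probes, 26743 were named by RefSeq accession and 1818 by the accession of their top hit, through a gene table of ARS-UCD2.0 used for names and gene order only. Symbols named 5113 and synonyms 138, while 1388 retain the name of the files and 8453 have none. Of the 98 member probes, 87 were named by accession and 11 by symbol, 89 were measured on both arrays, 1 in mastitis alone and 8 on neither. The scripts were tested on simulated data. Named in full were the 3 highest and 3 lowest ratios, the 3 brightest and 3 dimmest members, the catalytic subunits, PSMD4, PSMD14, PSME1, PSME2, members whose probes disagree in sign by over 1 and members measured on 1 array. Others were chosen after their values were seen. Members and lists were chosen with earlier results of these data known.

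The alternatives were normexp (offset 50, with limma 3.58.1 under R 4.3.3), quantile normalization, median, spike-in, shared-probe or no scaling, the deposited table as given or moved by 1 probe, no filter, a net signal of at least 50, spots marked as not found included, saturated probes excluded, the brightest or median probe, accession-named probes alone and thresholds of 1.5-fold and 3-fold. Adding probes outside the name rule and leaving out PSMC3IP and PSME3IP1 were chosen after seeing the data. Python 3.11.15, numpy 2.4.6, pandas 2.3.3 and matplotlib 3.10.9 were used. Precision is limited by the number of arrays. The value of 1 single gene is not reported here.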

Additional observations from a re-analysis of the deposited data

Results flagged for a closer look

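Some probes that the files or their top hit describe as proteasome genes carry no such symbol. They fell outside the name rule and entered no comparison, and 4 of 7 were well above background in both tissues. A probe described as PSME1 had net signals of 266 in mastitis and 447 in normal tissue, a log2 ratio of -1.46. The PSME1 probes inside the rule had -0.46 and -0.38, and with the added probe PSME1 had -0.77. A probe described as PSMF1 had 256 in mastitis and 152 in normal tissue (0.0378), and one described as PSME3 had 44 in mastitis and 34 in normal tissue (-0.34). A probe described as ECPAS, a scaffold protein of the proteasome, had 196 in mastitis and 70 in normal tissue (0.77).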

How the results depend on the processing

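The counts of members past 2-fold, 0 in each direction, were the same under all settings run except 3. Without scaling 1 member was higher, PSMB1. In the deposited table as given, whose rows are displaced, 7 were higher and 7 lower. With a threshold of 1.5-fold 5 were lower. That count became 6 when dim probes were kept or when probes outside the name rule were added. It was 4 with accession-named probes alone and 3 with a net signal of at least 50. It was 1 with median, spike-in or quantile scaling or the table moved by 1 probe, and 0 with normexp or no scaling. With the brightest probe it stayed at 5, with PSMC3 in place of PSMB6. The count of 0 members 1.5-fold higher became 20 without scaling and 1 with normexp, median, spike-in or quantile scaling, the moved table or no filter, and the table as given had 14 higher and 10 lower. The members' median of -0.15 became 0.56 without scaling, where the median of all genes was 0.57, and 0.0533 in the deposited table as given. The 24 members below the median of all genes became 13 with normexp and 11 without the filter on dim probes, where the median of all genes was -0.36 and that of the members stood 0.20 above it. The cause was not tested. Scalings by a constant move every ratio alike, so they are left out of the next count. Of 322 further values for role groups and named genes, 264 moved by less than 0.16, the SD between replicate spots, and 58 by more. These include the deposited table as given, whose rows are displaced. Under it 26 of 32 values moved, the results over all members among them. No paired analysis was possible because each condition has 1 array, and no array could be left out. Low signal limits PSMB11, PSMD10, PSMC3IP, a probe of PSMB6 and the dimmer probes of PSME3IP1 and PSME4. With a net signal of at least 50 the log2 ratio of PSME4 became 0.51.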

Other observations

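In the gene order of the RefSeq table, PSME2 and PSME1 are separated by 1 gene, EMC9, and their log2 ratios were -0.21 and -0.42. PSMB8 and PSMB9 are separated by 1 gene as well, TAP1, a peptide transporter of MHC class I loading. The log2 ratios of these 3 were -0.092 for PSMB8, -0.34 for TAP1 (SD 0.16, 3 probes) and -3.07 for PSMB9. Of 5 measured genes of the MHC class I pathway none was 2-fold apart (median -0.34), beside 2.29% of all measured genes 2-fold higher and 9.12% 2-fold lower. B2M, the shared light chain, had a log2 ratio of -0.45 (SD 0.28, 5 probes). The models of PSMB11 and PSMB5 overlap in that table, and their log2 ratios were -0.71 and -0.63, each from a single probe.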
